A study of Mus musculus with 16 samples.

Results

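Nkx2-1, Emx2, Lhx2, Fezf2, Six6, Rax, Hesx1, Six3 and Otx2 are transcription factors that pattern the embryonic forebrain. They were taken by gene symbol, as 9 of the 24421 genes in the count tables, and all 9 passed the filter on low counts. RNA was sequenced from head tissue of mouse embryos at embryonic day 8.5, in 4 groups of 4 libraries. The piece taken ran from the level of the first branchial arch to a little above the otic vesicle. The labels do not say how much of the forebrain this piece held, so the level of a forebrain gene may also depend on where a head was cut, which was not tested. Moderate diet mutants were homozygous for an Ift88 null allele and moderate diet WT embryos were wild type, both from families kept for 3 generations on 2 ppm folic acid. Enriched diet mutants and enriched diet WT embryos had the same genotypes and came from families kept for 3 generations on 10 ppm folic acid. The labels name no Cre or tissue that would limit the null allele. The sources used here do not give the exons that are missing, the strain or the litter of an embryo. A p-value below therefore speaks of differences among libraries that may share a litter.

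Ift88 is part of the transport machinery that builds the primary cilium, and mammalian cells read Hedgehog signals through the cilium. In the early forebrain, Sonic hedgehog from the midline mesoderm sets up ventral fates such as the hypothalamus, and antagonists, Wnt and Fgf signals set up dorsal and anterior fates. Otx2 marks forebrain and midbrain, Six3 and Hesx1 the anterior neural plate, Rax, Six6 and Lhx2 the eye field, Nkx2-1 the ventral forebrain, Emx2 the dorsal forebrain, and Fezf2 the anterior forebrain.

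Libraries held 19249433 to 44267434 counts assigned to genes. Ift88 was lower in all 8 mutants, at 2.01 to 8.61 CPM (counts relative to the scaled library total), than in the 8 WT libraries, at 9.30 to 20.9 CPM, and the lowest of these was moderate diet WT replicate 2. Moderate diet mutant replicate 3 lay at 3.66 on the first principal component of the 500 genes that varied most, which held 47.6% of their variance, where the other mutants lay at -23.7 to -14.7 and WT at 12.6 to 19.3. Enriched diet mutant replicate 3 held 188.6 CPM of the decidual hormone gene Prl8a2, and its summed decidual markers came to 200.2 CPM, against at most 13.7 CPM in any other library. The sex on the label was contradicted by Xist and Y-linked counts in 3 libraries, moderate diet mutant replicates 1 and 2 and moderate diet WT replicate 2. Neural tube markers summed to 1290 to 1421 CPM in moderate diet mutants against 1347 to 1497 in WT, and to 1257 to 1478 CPM in enriched diet mutants against 1287 to 1405 in WT. Cardiac markers summed to 23.5 CPM in moderate diet mutant replicate 3 and to 3.97 to 8.18 CPM in the other libraries. The 7 visceral endoderm markers summed to 105 CPM in enriched diet mutant replicate 4 and to 31.9 and 31.1 CPM in moderate diet mutant replicates 2 and 3, against 5.36 to 23.4 CPM in the other libraries.

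In WT heads the 9 genes spanned a wide range of levels per kilobase of exon. Otx2, which specifies the anterior head, held 35.8 ± 2.99 CPM per kilobase (SD over 8 WT libraries) and Lhx2, a LIM homeodomain factor of the eye field and cortex, 22.2 ± 1.49. Six3, a repressor of posterior fate in the anterior plate, followed at 9.18 ± 0.890 and Emx2, a factor of the dorsal telencephalon, at 8.49 ± 0.531. Six6 of the eye and hypothalamus held 7.17 ± 0.582 and Nkx2-1, which specifies the hypothalamus and later the medial ganglionic eminence, 6.26 ± 0.601. Fezf2, a zinc finger repressor of the forebrain, held 3.65 ± 0.312, Rax, the retinal homeobox factor, 3.48 ± 0.458, and Hesx1, a repressor needed for forebrain and pituitary, 1.38 ± 0.435 CPM per kilobase. Neighbours in this order had overlapping ranges at 3 places, between Six3 and Emx2, Six6 and Nkx2-1, and Fezf2 and Rax.

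The start regions of 2 genes that were lower in mutants, Nkx2-1 and Lhx2, and of 2 that did not pass the test, Otx2 and Six3, are shown for comparison. They are the bases before a RefSeq transcript start in GRCm38.p6, 250 long except for Six3, whose 206 bases stop where an annotated exon begins, and are written 5′ to 3′ on the strand of the gene. Capitals mark matches to any of 5 motifs on either strand, chosen with the expression values known: the Gli consensus GACCACCCA, the homeodomain core TAATTA, the GC box CCGCCC, the TATA box TATAAA and the CCAAT box CCAAT. No marked matches overlapped.
Nkx2-1, chr12:56536909-56537158, minus strand: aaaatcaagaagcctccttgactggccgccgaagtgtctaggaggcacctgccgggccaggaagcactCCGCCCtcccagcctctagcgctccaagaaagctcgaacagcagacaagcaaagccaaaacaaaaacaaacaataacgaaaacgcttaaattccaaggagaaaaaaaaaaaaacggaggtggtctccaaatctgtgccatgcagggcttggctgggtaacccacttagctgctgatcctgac
Lhx2, chr2:38339031-38339280, plus strand: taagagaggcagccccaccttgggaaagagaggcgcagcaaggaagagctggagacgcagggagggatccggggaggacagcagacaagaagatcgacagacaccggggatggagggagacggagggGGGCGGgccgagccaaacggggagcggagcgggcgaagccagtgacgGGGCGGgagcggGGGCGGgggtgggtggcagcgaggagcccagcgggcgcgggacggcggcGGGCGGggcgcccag
Otx2, chr14:48667645-48667894, minus strand: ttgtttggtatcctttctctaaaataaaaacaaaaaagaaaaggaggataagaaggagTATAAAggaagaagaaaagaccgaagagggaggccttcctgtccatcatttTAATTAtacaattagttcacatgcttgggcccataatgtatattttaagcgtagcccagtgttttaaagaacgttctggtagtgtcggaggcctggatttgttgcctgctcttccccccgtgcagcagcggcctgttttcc
Six3, chr17:85620584-85620789, plus strand: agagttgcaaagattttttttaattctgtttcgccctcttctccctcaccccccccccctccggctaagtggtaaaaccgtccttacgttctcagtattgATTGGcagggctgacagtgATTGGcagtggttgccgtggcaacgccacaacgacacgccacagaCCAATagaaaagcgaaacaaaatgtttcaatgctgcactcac
The Lhx2 window shown held 4 GC boxes and that of Nkx2-1 held 1. The Otx2 window held 1 TATA box and 1 homeodomain core, and the Six3 window 3 CCAAT boxes. Lhx2 and Otx2 have other RefSeq starts, and those windows are not shown because they overlap exons. The other Lhx2 window held 0 GC boxes, and of 3 other Otx2 windows 1 held 3 homeodomain cores, 1 a CCAAT box and 1 none of the motifs. RefSeq windows matched 8 of the 9 genes by symbol, all but Rax, and none of their windows held the Gli consensus. Among 32851 windows of 250 bases over all genes, 0.225% held the Gli consensus, 4.84% the homeodomain core, 32.7% a GC box, 12.4% a TATA box and 33.8% a CCAAT box. A match is a string of letters in this window and no measure of binding.

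In Ift88 mutants on the moderate diet 4 of the 9 genes were lower and none higher. Nkx2-1 was at 28.0% of its WT mean, Emx2 at 43.3%, Fezf2 at 56.1% and Lhx2 at 58.1%. Six6, Rax, Hesx1, Six3 and Otx2 did not pass the test, with means of 90.4 to 109% of WT. Over all 14514 genes tested, 2.83% passed as lower on this diet, 4.79% as higher and 7.62% in either direction. On the enriched diet 5 of the 9 genes were lower and none higher, against 16.8% of all genes lower, 14.4% higher and 31.2% in either direction. These were Nkx2-1 at 18.3% of its WT mean, Lhx2 at 40.6%, Emx2 at 43.3%, Fezf2 at 62.5% and Six6 at 67.8%. Leaving out 1 library left 2 of the 9 lower on the moderate diet (without mutant replicate 1 or 2, or WT replicate 1, 2 or 4) and 3 on the enriched diet (without mutant replicate 1 or 2, or WT replicate 1 or 3). Without the 3 libraries with a contradicted sex, all of them on the moderate diet, 1 passed on the moderate diet and 3 on the enriched diet. The test took sex from the labels. With sex read from counts, Fezf2 did not pass on the moderate diet (edgeR adjusted p = 0.0539). On the enriched diet Fezf2 (adjusted p = 0.0545) and Six6 (adjusted p = 0.0677) then did not pass. The summed level of 15 genes known to respond to low oxygen was 5790 to 10046 CPM in moderate diet mutants against 3466 to 3880 in WT, and 6578 to 8509 CPM in enriched diet mutants against 4132 to 5262 in WT, and its part in these results was not tested. In these bulk samples, fewer cells of a type and less RNA per cell cannot be told apart.

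**Figure D1:**
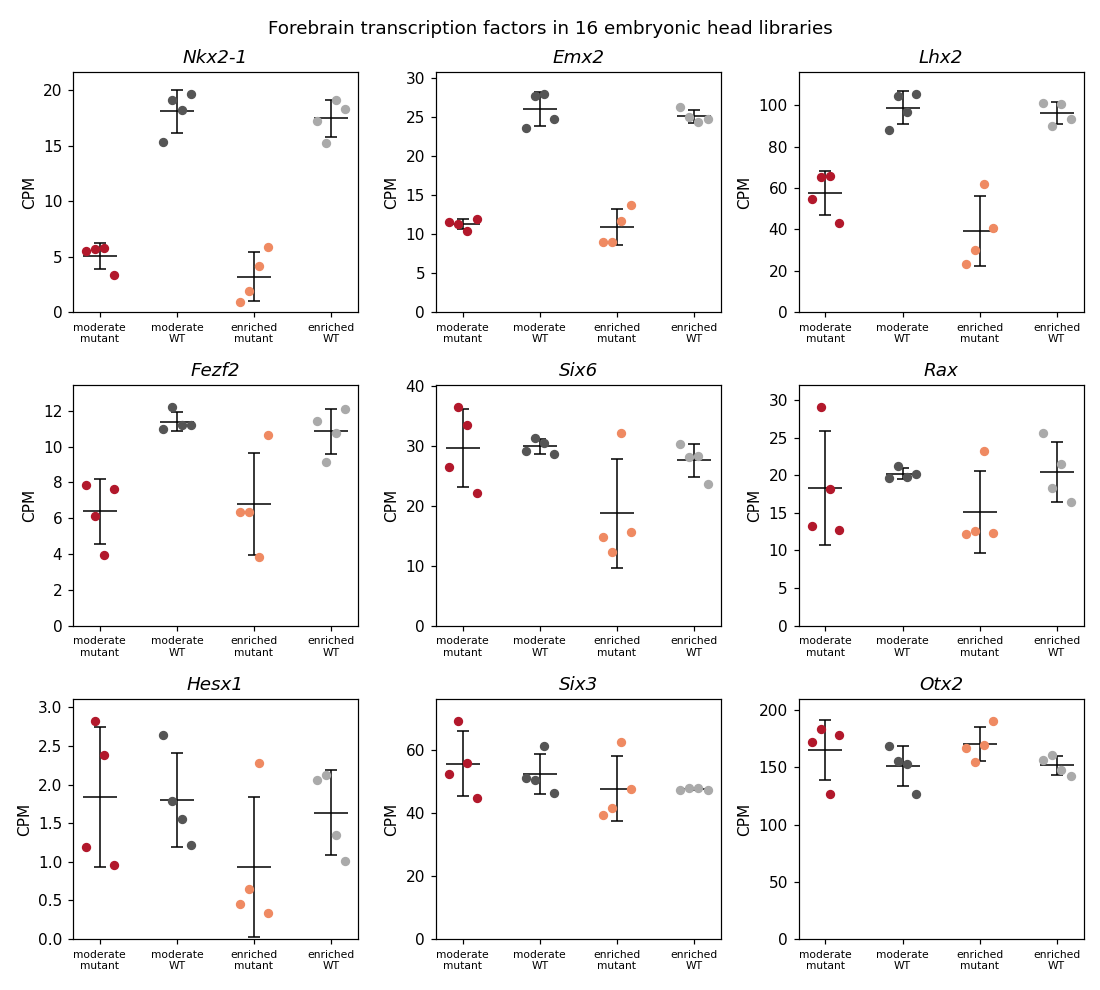
CPM of each of the 9 genes in every library (points), with the group mean and SD as bars, on axes that start at 0. In Nkx2-1, Emx2 and Lhx2 all 8 mutants lie below all 8 WT libraries, and in Six6, Rax and Hesx1 enriched diet mutant replicate 3 lies apart from the other enriched diet mutants.

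Nkx2-1 is the ventral member, induced by Hedgehog in the floor of the forebrain, and lies on chromosome 12 from 56531958 to 56536908 in mm10. Moderate diet mutant replicates 1 to 4 held 5.50, 5.66, 5.79 and 3.32 CPM, against 15.4, 19.2, 18.2 and 19.7 CPM in moderate diet WT. Enriched diet mutants held 0.906, 1.90, 4.19 and 5.83 CPM, against 17.3, 15.2, 19.1 and 18.3 CPM in enriched diet WT. Every mutant was below every WT library on both diets, and enriched diet mutants ranged from 5.18 to 33.3% of the WT mean. In log2 units the change was -1.84 ± 0.34 (SE) on the moderate diet (adjusted p = 0.00325 by edgeR's quasi-likelihood test, Benjamini-Hochberg over all genes tested), and the enriched diet gave -2.43 ± 0.36 (adjusted p = 0.000297). Averaged over the diets it was -2.13 ± 0.24 (adjusted p = 1.44e-05). The moderate diet call was lost without the 3 libraries with a contradicted sex, at -1.84 ± 0.49 (adjusted p = 0.151). Nkx2-1 is also a marker of thyroid and lung endoderm. Of the 8 thyroid and pharyngeal endoderm markers tested, 2 were lower in mutants over both diets, Foxe1 (-1.98 ± 0.40, adjusted p = 0.00141) and Foxa1 (-1.96 ± 0.15, adjusted p = 3.04e-07), and 2 were higher, Pax8 (0.44) and Epcam (0.22). Their summed level was 144 to 171 CPM in moderate diet mutants against 127 to 149 in WT, and 131 to 164 CPM in enriched diet mutants against 131 to 171 in WT, with none of the 11 listed genes at 0 in any group. Foxe1, the thyroid factor, reached at most 0.389 CPM in mutants and 1.39 CPM in WT. The part of endoderm in the Nkx2-1 values was not tested.

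Emx2 patterns the dorsal forebrain and lies on chromosome 19 from 59458372 to 59465357. Moderate diet mutants held 11.5, 11.2, 10.4 and 11.8 CPM, against 23.6, 27.6, 27.9 and 24.7 CPM in WT. On the enriched diet, mutants held 9.02, 9.0, 11.6 and 13.7 CPM, against 26.2, 25.0, 24.3 and 24.7 CPM in WT. Mutants and WT did not overlap, and moderate diet mutants varied by only 5.33% of their mean (coefficient of variation). Emx2 changed by -1.21 ± 0.12 in log2 units on the moderate diet (edgeR adjusted p = 1.61e-05), by -1.19 ± 0.12 on the enriched diet (adjusted p = 2.62e-05) and by -1.20 ± 0.08 on average (adjusted p = 1.44e-07). Emx2os, an antisense transcript that overlaps Emx2, averaged 0.993 CPM over the 16 libraries, far below Emx2 itself.

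Lhx2, which acts in the eye field and the cortex, lies on chromosome 2 from 38339281 to 38369733. Moderate diet mutants held 55.0, 65.6, 66.0 and 43.3 CPM, against 88.3, 105, 96.9 and 106 CPM in WT. Enriched diet mutants held 23.5, 30.2, 62.0 and 40.8 CPM, against 101, 90.1, 101 and 93.5 CPM in WT. All mutants were below all WT libraries, and enriched diet mutant replicate 3 was the highest of its group. Its log2 fold change was -0.78 ± 0.21 on the moderate diet (edgeR adjusted p = 0.0326), while the enriched diet value was -1.33 ± 0.22 (adjusted p = 0.000638), with an average of -1.06 ± 0.15 (adjusted p = 0.000104). The moderate diet call was lost in 8 of 19 alternatives, 7 of which leave out 1 library, any of the 8 but mutant replicate 3, with adjusted p of 0.0514 to 0.0995.

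Fezf2, which represses caudal fates in the forebrain, lies on chromosome 14 from 12342094 to 12348189. Moderate diet mutants held 7.86, 6.15, 3.92 and 7.64 CPM, against 11, 12.2, 11.2 and 11.2 CPM in WT. Enriched diet mutants held 6.32, 6.32, 3.82 and 10.7 CPM, against 11.5, 9.13, 10.8 and 12.1 CPM in WT. The groups did not overlap on the moderate diet, and on the enriched diet mutant replicate 4 lay inside the WT range. Its log2 fold change was -0.86 ± 0.21 on the moderate diet (edgeR adjusted p = 0.0198), -0.59 ± 0.21 on the enriched diet (adjusted p = 0.0437) and -0.73 ± 0.15 as the average (adjusted p = 0.00154). The moderate diet call was lost in 7 of 19 alternatives, among them those without mutant replicate 1 or 2 or WT replicate 1, 2 or 4 (adjusted p of 0.0542 to 0.0695). The enriched diet call was lost in 13 of 19, among them those without mutant replicate 1, 2 or 3 or any WT replicate (adjusted p of 0.0733 to 0.166). The average stayed past the threshold in all 26 alternatives run on it, as it did for Nkx2-1, Emx2 and Lhx2.

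Averaged over the diets, 4 of the 9 genes passed as lower and none as higher, against 18.5% of all genes tested as lower, 17.4% as higher and 35.8% in either direction. Without enriched diet mutant replicate 3, 7 of the 9 passed. Over the 16 fits that each leave out 1 library, 4177 to 5563 of all genes passed for this average. In 3 of the 4, Nkx2-1, Emx2 and Lhx2, all 8 mutants were below all 8 WT libraries, which held for 1.93% of the genes tested. Within a diet, mutants lay below WT without overlap in 4 genes on the moderate diet, where 7.06% of all genes did, and in 3 on the enriched diet, where 12.5% did. The median log2 fold change of the 9 genes was -0.16 on the moderate diet and -0.67 on the enriched diet, beside -0.01 on both diets over all genes tested.

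**Figure D2:**
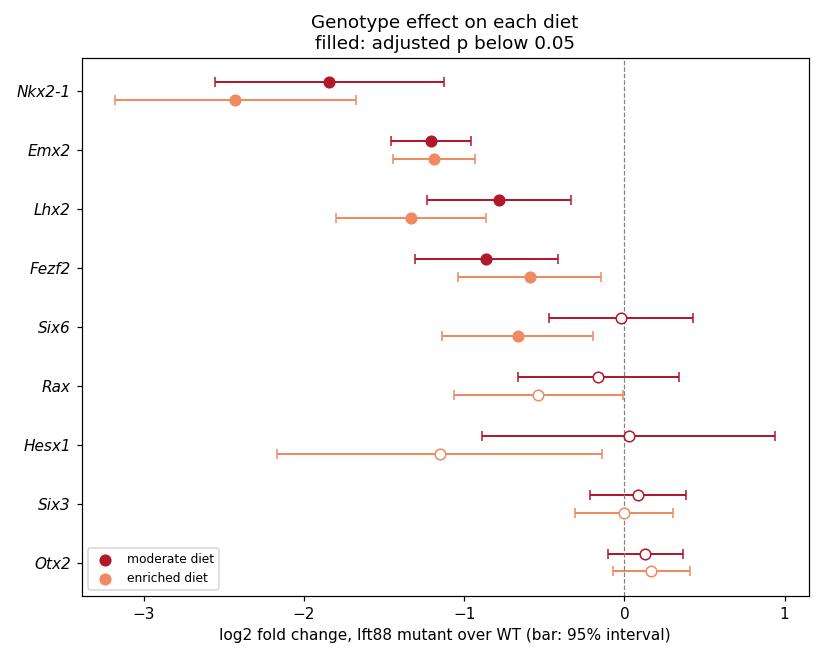
Log2 fold change of each gene in Ift88 mutants over WT on the moderate diet (dark red, upper) and the enriched diet (orange, lower), with 95% intervals; filled points passed an adjusted p of 0.05. Nkx2-1, Emx2, Lhx2 and Fezf2 lie left of 0 on both diets, and Six6 passed on the enriched diet, at -0.67, and not on the moderate diet, at -0.02.

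Six6, a factor of retina and hypothalamus, lies on chromosome 12 from 72939892 to 72944899. Moderate diet mutants held 26.4, 36.4, 33.5 and 22.2 CPM, against 29.2, 31.4, 30.4 and 28.7 CPM in WT. On the enriched diet, mutants held 14.7, 12.2, 32.2 and 15.7 CPM, against 30.2, 28.1, 28.2 and 23.7 CPM in WT. On the moderate diet the mutants lay on both sides of WT, and on the enriched diet 3 mutants lay below all WT libraries and replicate 3 above them. In log2 units the genotype effect was -0.02 ± 0.21 on the moderate diet (edgeR adjusted p = 0.969), while the enriched diet value was -0.67 ± 0.22 (adjusted p = 0.0326). The difference between the diets in that effect, -0.65 ± 0.31, did not pass (adjusted p = 0.501). The enriched diet call was lost in 9 of 19 alternatives, among them those without mutant replicate 1, 2 or 4 or WT replicate 1 or 3 (adjusted p of 0.0820 to 0.141). Without enriched diet mutant replicate 3 the fold change was -0.93 ± 0.15 (adjusted p = 0.000764). The average over the diets did not pass (-0.34 ± 0.15, adjusted p = 0.0933), and passed without that library at -0.47 ± 0.10 (adjusted p = 0.00245).

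Rax, on chromosome 18, is needed to form the eye field and the hypothalamus. Moderate diet mutants held 13.2, 29.1, 18.2 and 12.7 CPM, against 19.7, 21.3, 19.7 and 20.2 CPM in WT. Enriched diet mutants held 12.1, 12.6, 23.3 and 12.3 CPM, against 25.6, 18.3, 21.5 and 16.5 CPM in WT. Mutant replicate 2 on the moderate diet and replicate 3 on the enriched diet were the high ones, and the groups overlapped on both diets. The log2 fold change of -0.54 ± 0.25 on the enriched diet (edgeR adjusted p = 0.109) and that of -0.16 ± 0.24 on the moderate diet (adjusted p = 0.737) did not pass. Without enriched diet mutant replicate 3 the enriched diet value was -0.71 ± 0.23 and passed (adjusted p = 0.0307). The average over the diets, -0.35 ± 0.17 (adjusted p = 0.126), passed without that library (adjusted p = 0.0437) or without moderate diet mutant replicate 2 (adjusted p = 0.0220).

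Hesx1, on chromosome 14 from 26994416 to 27002329, had the lowest level of the 9 genes, with 10 to 83 counts in a library. Moderate diet mutants held 1.20, 2.83, 2.38 and 0.960 CPM, against 2.64, 1.79, 1.56 and 1.2 CPM in WT. On the enriched diet, mutants held 0.453, 0.649, 2.28 and 0.339 CPM, against 2.06, 2.13, 1.34 and 1.01 CPM in WT. On the enriched diet 3 mutants were below all WT libraries and replicate 3 above them. The enriched diet log2 fold change was -1.15 ± 0.48 (edgeR adjusted p = 0.0777), and the moderate diet value 0.03 ± 0.43 (adjusted p = 0.980). The enriched diet value passed in 5 of 19 alternatives, at -1.78 ± 0.42 without replicate 3 (adjusted p = 0.00639) and with DESeq2 (adjusted p = 0.0476) and limma-voom (adjusted p = 0.0287). The average over the diets, -0.56 ± 0.32 (adjusted p = 0.187), passed without that library at -0.87 ± 0.27 (adjusted p = 0.0217).

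Six3 and Otx2, which mark the anterior plate and the forebrain and midbrain, had mutant means of 100.2 to 112% of WT. Six3, on chromosome 17 from 85613608 to 85629302, held 52.4, 69.3, 55.9 and 44.6 CPM in moderate diet mutants, against 51.1, 50.6, 61.3 and 46.4 CPM in WT. In enriched diet mutants it held 39.5, 41.5, 62.4 and 47.6 CPM, against 47.4, 47.8, 47.9 and 47.4 CPM in WT. The mutants lay on both sides of WT. Enriched diet WT libraries varied by 0.516% of their mean, less than counting noise alone gives at their 990 to 1638 counts. That closeness is therefore no measure of how steady Six3 was. The log2 fold change was 0.09 ± 0.14 on the moderate diet (edgeR adjusted p = 0.769), while the enriched diet value was -0.0025 ± 0.15 (adjusted p = 0.992), and its average of 0.04 had a 95% interval of -0.17 to 0.26. Six3os1, an antisense gene that overlaps Six3, held as much, 57.6 CPM on average, so unstranded reads of the pair may be exchanged. Its own log2 fold changes were 0.07 on the moderate diet and 0.14 on the enriched diet, and did not pass.

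Otx2, on chromosome 14 from 48657677 to 48673819, held 172, 184, 126 and 178 CPM in moderate diet mutants, against 168, 155, 153 and 127 CPM in WT. In enriched diet mutants it held 167, 155, 169 and 191 CPM, against 156, 161, 148 and 143 CPM in WT. The ranges overlapped on both diets, with moderate diet mutant replicate 3 as the lowest mutant. The log2 fold change was 0.13 ± 0.11 on the moderate diet (edgeR adjusted p = 0.521), while the enriched diet value was 0.17 ± 0.11 (adjusted p = 0.266). The average, 0.15 ± 0.08 (adjusted p = 0.153), had a 95% interval of -0.02 to 0.32. Without moderate diet mutant replicate 3 it was 0.22 ± 0.06 and passed (adjusted p = 0.0142). Otx2, Hesx1 and Fezf2 share chromosome 14 with Ift88, with starts 8.77, 30.4 and 45.1 Mb from its start.

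**Figure D3:**
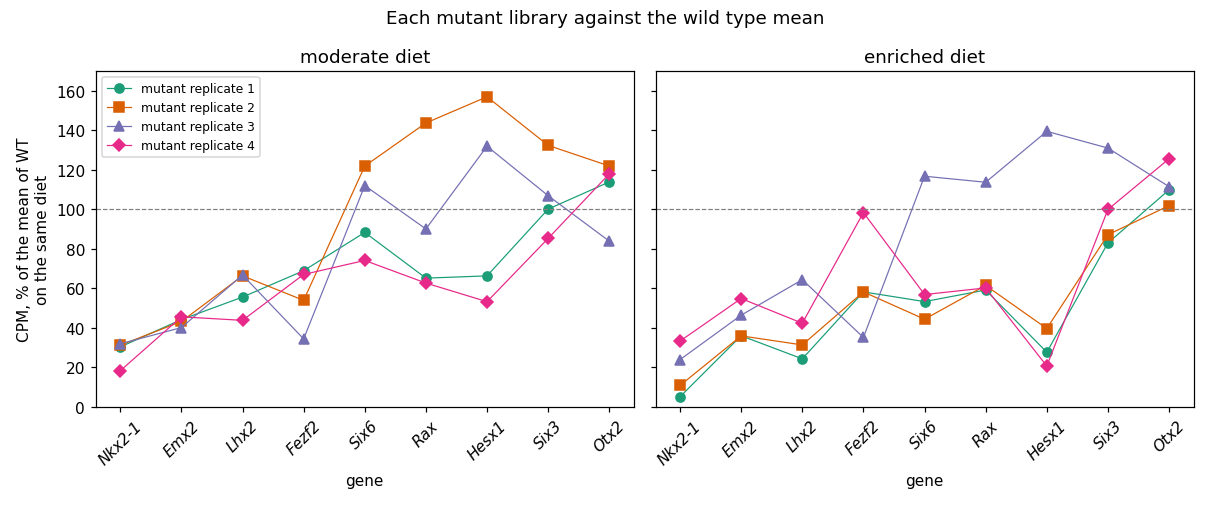
CPM of each gene in each mutant library as a percentage of the WT mean on the same diet, with the dashed line at 100% and a line for each library. On the enriched diet, replicate 3 reads 111 to 139% for Six6, Rax, Hesx1, Six3 and Otx2, while the other 3 read 20.7 to 61.5% for Six6, Rax and Hesx1.

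Mutant libraries differed from each other across the 9 genes. For each gene 1 library of a group must be the highest and 1 the lowest. How often each library was so over all genes was not counted, so the counts below may not be particular to the 9. Enriched diet mutant replicate 3 was the highest of its group for 5 genes, Six3, Six6, Rax, Lhx2 and Hesx1, and the lowest for Fezf2. It is also the library with decidual Prl8a2, and the part of that in these values was not tested. Enriched diet mutant replicate 4, the library with the most visceral endoderm markers, was the highest of its group for 4 genes, Nkx2-1, Emx2, Otx2 and Fezf2. Without it, Nkx2-1, Emx2, Lhx2 and Fezf2 passed as lower on the enriched diet and Six6 did not. Moderate diet mutant replicate 2 was the highest of its group for 5 genes, Six3, Six6, Otx2, Rax and Hesx1. Moderate diet mutant replicate 4 was the lowest for 6, Nkx2-1, Six3, Six6, Rax, Lhx2 and Hesx1. The coefficient of variation was larger in mutants than in WT for 8 of the 9 genes on the moderate diet, all but Emx2, and for all 9 on the enriched diet. It was also larger for 71.6% and 63.3% of all genes tested on those diets.

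Diet changed none of the 9 genes past the threshold, where 0% of all genes passed in WT, in mutants or for the difference between the diets in the genotype effect. In WT, enriched over moderate, the log2 fold changes of the 9 genes ran from -0.28 ± 0.23 for Fezf2 to 0.21 ± 0.47 for Hesx1. In mutants the lowest were Hesx1 (-0.97 ± 0.47, edgeR adjusted p = 0.467), Nkx2-1 (-0.80 ± 0.37, adjusted p = 0.454), Six6 (-0.63 ± 0.22, adjusted p = 0.442) and Lhx2 (-0.55 ± 0.22, adjusted p = 0.442). Before adjustment, an edgeR p under 0.05 was reached by 3 of the 9 genes in mutants, Nkx2-1, Six6 and Lhx2, and by 10.8% of all genes, by 0 of the 9 and 2.44% of all genes in WT, and by 0 of the 9 and 9.65% of all genes for the difference between genotype effects. DESeq2 called 1 gene in WT, 3 in mutants and 0 for that difference, none of them among the 9, and limma-voom called 0 in each. The difference between genotype effects, enriched minus moderate, was -1.18 ± 0.64 for Hesx1, -0.59 ± 0.48 for Nkx2-1, -0.55 ± 0.30 for Lhx2 and 0.02 ± 0.17 for Emx2, with adjusted p of at least 0.501 for all 9 genes.

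Genes of neighbouring brain regions were counted in the same way, beside 17.4% of all genes higher, 18.5% lower and 35.8% in either direction over both diets. Of 26 other forebrain and eye genes, 6 were higher, 8 lower and 12 not past the threshold in mutants over both diets, with a median log2 fold change of -0.16. Wnt8b and Wnt7b, ligands of the dorsal forebrain, were lower (-0.96 ± 0.07, edgeR adjusted p = 1.51e-07, and -0.94 ± 0.09, adjusted p = 2.20e-06). So were Emx1, the paralog of Emx2 (-1.36 ± 0.14, adjusted p = 6.59e-06), and Nkx2-4, a relative of Nkx2-1 in the ventral forebrain (-3.16 ± 0.36, adjusted p = 1.41e-05). Nkx2-4 was low in every group, with means of 0.102 (moderate) and 0.0897 CPM (enriched) in mutants, against 0.771 and 0.897 CPM in WT. Fgf15 of the same list passed as higher on the moderate diet (1.01 ± 0.17) and the enriched diet (0.95 ± 0.18). Irx3 also passed as higher on both diets (0.46 ± 0.08 and 0.30 ± 0.08). Of 14 midbrain and isthmus genes 7 were higher and 1 lower, with a median of 0.30. Among the higher were Fgf8, the organizer signal (0.69 ± 0.10, adjusted p = 0.000115), Pax2 (0.64 ± 0.11, adjusted p = 0.000328), Pax8 (0.44) and En2 (0.49). Fgf8 is also in the list of anterior signalling genes, and Pax8 in those of endoderm and of placode markers. Whole head pieces cannot assign their change to 1 region. Of 9 hindbrain genes tested 0 passed over both diets in edgeR, with a median of -0.10.

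**Figure D4:**
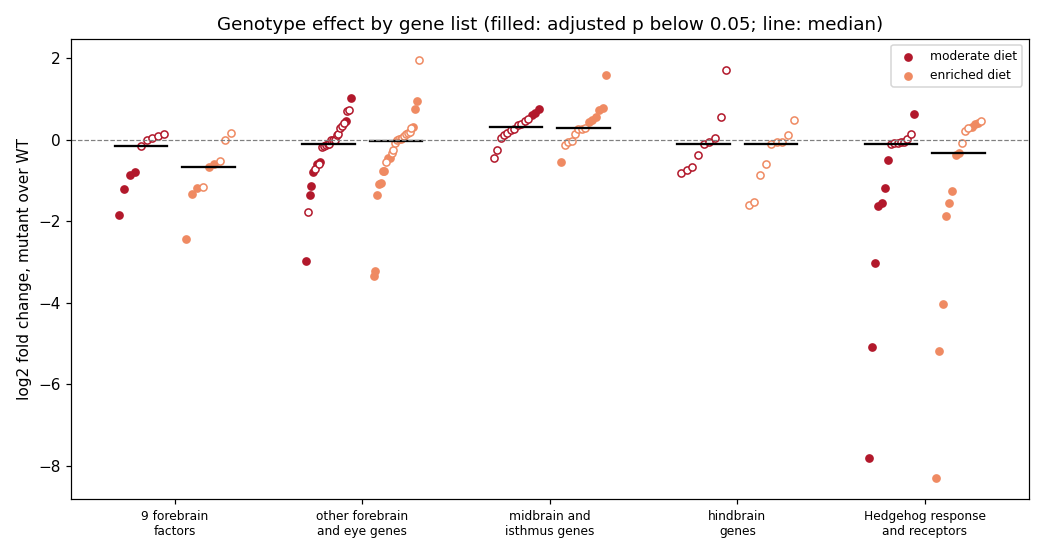
Log2 fold change in mutants over WT of every tested gene of 5 lists, on the moderate (dark red, left) and enriched (orange, right) diets; filled points passed an adjusted p of 0.05 and black lines are medians. Midbrain and isthmus genes have medians of 0.30 and 0.27, and the 9 forebrain factors of -0.16 and -0.67.

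RNA of Hedgehog and anterior signalling genes was measured in the same libraries, over the whole piece of head. Of 15 prechordal plate and anterior signalling genes 4 were higher, 5 lower and 6 not past the threshold over both diets. Shh averaged 1.55 ± 0.537 CPM in moderate diet mutants, against 34.1 ± 0.875 in WT, and 1.1 ± 0.277 CPM in enriched diet mutants, against 33.9 ± 2.64 in WT (SD, n = 4 each). Among them Foxa2, a factor of the floor plate and prechordal plate, was lower (-5.14 ± 0.14, edgeR adjusted p = 3.25e-13), as was Sfrp1, a Wnt antagonist (-0.50 ± 0.08, adjusted p = 0.000190). Fgf8, also counted with the midbrain and isthmus genes, was among the 4 higher ones (0.69 ± 0.10, adjusted p = 0.000115). Of 15 Hedgehog response and receptor genes 2 were higher and 8 lower over both diets. Foxa2, which is counted in both lists, Nkx2-9 and Nkx2-2 were among the lower ones. Beside the counts of both lists, 17.4% of all genes tested passed as higher, 18.5% as lower and 35.8% in either direction. Nkx2-1 had means of 18.3 to 28.0% of WT in mutants, and Shh of 3.24 to 4.55%. The part of Shh in the Nkx2-1 values was not tested.

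Genes whose pattern over the 16 libraries was most like that of each lowered member were found by the smallest root mean square difference in centred log2 CPM among 12243 genes. Aldh1a1 (0.627) and Zcchc12 (0.629) were among the 3 closest to Nkx2-1. Emx2 was closest to its paralog Emx1 (0.221), to the mesenchymal factor Foxc2 (0.223) and to Wnt8b (0.227). Lhx2 was closest to Necab1 (0.224), Tubb4a (0.245) and Lrrc4 (0.288), and Fezf2 to Pcdh8 (0.267), Lrrn2 (0.276) and Mecom (0.282). Six6 was closest to Shisa2 (0.140) and Fzd5 (0.146), then Irs4 (0.186). Shisa2 averaged 76.3 CPM in enriched diet mutants, against 104 CPM in WT, and 114 CPM in both moderate diet groups. The libraries share genotype, depth and scaling, so these are descriptions of likeness.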

How the data were processed

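Per the labels' protocols, library preparation used the TruSeq RNA kit v2. It does not record the strand, so reads of overlapping or antisense genes cannot be told apart. Per the submitters' processing notes, the authors used FastQC 0.11.5, TopHat2 2.1.1, SAMtools 1.8, HTSeq 0.9.1 and DESeq2 1.22.2 with mm10. Annotation and counting options are not given in the sources used here. Each deposited table holds unnormalized counts per gene; 5 summary lines of the counting tool were left out, of which reads on no feature made up 13.7 to 17.0%. Genes reaching 10 counts in 4 or more libraries were kept (14514 genes, 59.4%). They were tested with edgeR 4.0.16 in R 4.3.3 (TMM scaling, quasi-likelihood test, 1 coefficient per group in all 16 libraries, labelled sex as covariate), with Benjamini-Hochberg adjusted p over all genes tested and a threshold of 0.05. The test was tested on simulated counts, with 50 genes changed per fold size, drawn from those with a mean CPM above 1. Each gene had the same spread in every group, so the larger spread of many genes in mutants was not simulated. On the moderate diet it recovered 12% of 1.25-fold, 66% of 1.5-fold and 86% of 2-fold changes. On the enriched diet it recovered 6%, 54% and 92%. Of the unchanged genes, 2 were called on the moderate diet and 5 on the enriched diet. These rates may not hold for the real libraries. Log2 CPM used a prior count of 2. Exon lengths and coordinates came from GENCODE vM21 for mm10, promoter windows from RefSeq.

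The 9 genes and the lists were chosen with earlier results of these data known. Named beside them are Ift88, up to 4 genes of each list with the smallest p past the threshold, and the 3 genes most alike with a mean CPM of at least 1. Shh, Prl8a2, Foxe1, Fgf15, Irx3 and the overlapping genes were added after their values were seen. Some genes that this rule names are not reported here. Alternatives were median-of-ratios scaling, DESeq2 1.42.0, limma-voom (limma 3.58.1), other filters and sex terms, a replicate block, other sets of libraries and each library left out. Leaving out 3 libraries that stood apart was added after the data were seen.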

Additional observations from a re-analysis of the deposited data

Results flagged for a closer look

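In 4 of 36 groups of 4 libraries, 1 library lay farther from the other 3 than the 95% limit of Dixon's test allows, which chance gives in about 1 in 20 groups. Rax at 23.3 CPM and Hesx1 at 2.28 CPM were both highest in enriched diet mutant replicate 3, the library that also held decidual Prl8a2. Nkx2-1 was lowest in moderate diet mutant replicate 4, at 3.32 CPM. Fezf2 was highest in moderate diet WT replicate 2, at 12.2 CPM, the WT library with the lowest Ift88 level.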

How the results depend on the processing

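The average genotype effects of Nkx2-1, Emx2, Lhx2 and Fezf2 kept their direction and passed in all 26 alternatives, and on the enriched diet those of Nkx2-1, Emx2 and Lhx2 in all 19. The call of Nkx2-1 on the moderate diet was lost in 1 of 19, without the 3 libraries whose sex label their counts contradict (adjusted p = 0.151). Without those libraries 105 genes passed on the moderate diet in place of 1106, and 2964 on average in place of 5202. Of the 9, 1 passed in place of 4 on the moderate diet and 3 in place of 5 on the enriched diet. All 3 libraries were on the moderate diet, so its groups were smaller. There Nkx2-1 was at -1.84 ± 0.49, against -1.84 ± 0.34 with all libraries. Lhx2 was at -0.85 ± 0.31 against -0.78 ± 0.21, and Fezf2 at -0.84 ± 0.31 against -0.86 ± 0.21. With the libraries of the groups compared alone, 719 genes passed on the moderate diet and 3 of the 9 on the enriched diet, as did 3 with sex read from counts. Leaving out 1 library gave 538 to 2107 genes and 2 to 4 of the 9 on the moderate diet, the highest count without mutant replicate 3. It gave 3023 to 4572 genes and 3 to 6 of the 9 on the enriched diet. On average it gave 4177 to 5563 genes and 4 to 7 of the 9, the 7, all lower, without enriched diet mutant replicate 3. For diet in mutants it gave 0 to 1 genes. Without moderate diet mutant replicate 3, moderate diet WT replicate 2 and enriched diet mutant replicate 3, which stood apart, 4 of the 9 were lower on the moderate diet, 6 on the enriched diet and 6 on average, where Otx2 was higher (0.23, adjusted p = 0.0274), making 7, and Rax did not pass (adjusted p = 0.0909). Without these 3 that stood apart, 1628, 4322 and 5091 of all genes passed on the moderate diet, the enriched diet and on average. DESeq2 called 1 gene for diet in WT and 3 in mutants. The causes were not tested. The labels do not say that replicate numbers pair embryos. Deviations from the group means correlated above 0.1 in 8 of 24 same-numbered pairs (r of -0.29 to 0.51). Pairs of unlike number were not compared, so these values cannot show whether the numbers pair libraries. With the number as a block, 1453, 4979 and 5645 genes passed on the moderate diet, the enriched diet and on average. Of the 9, 4, 6 and 5 did, and 0 genes passed in the diet comparisons. Of 1152 alternative values of the 9 genes 92 changed sign, none of them called under either setting, at -0.31 to 0.19. Depth limits Hesx1 most, with 10 counts in its lowest library.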

Other observations

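Markers of other tissues were counted in the same way, beside 35.8% of all genes past the threshold over both diets, 17.4% as higher and 18.5% as lower. Of 7 pituitary and placode markers tested, 4 were higher and 1 lower in mutants over both diets, with Dlx3, a factor of the preplacodal ectoderm, at a log2 fold change of 0.73 ± 0.12 (edgeR adjusted p = 0.000308). Their summed level was 150 to 174 CPM in moderate diet mutants against 140 to 150 in WT, and 159 to 168 CPM in enriched diet mutants against 135 to 156 in WT. Of 10 surface ectoderm markers 3 were higher and 0 lower, with Krt19 at 0.99 ± 0.11 (adjusted p = 1.47e-05). Of 15 mesenchyme and neural crest markers 4 were higher and 2 lower, and of 9 erythroid markers tested 0 were higher and 4 lower, with Klf1 at -1.50 ± 0.33 (adjusted p = 0.00244). Of 12 neural tube markers 2 were higher and 1 lower, and of 10 early neuron markers 1 was lower, Dll1 at -0.32 ± 0.08 (adjusted p = 0.00783).

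Of the 15 genes known to respond to low oxygen, all were higher in mutants over both diets, with Adm at 5.37 ± 0.36 (edgeR adjusted p = 9.00e-08) and Ddit4 at 3.14 ± 0.27 (adjusted p = 8.03e-07). Their summed level was higher in each of the 8 mutants than in any WT library. Moderate diet mutant replicate 3 held the lowest of the mutant sums, and replicate 2, which was highest for 5 of the 9 forebrain factors, the highest. On the enriched diet the highest sum, 8509 CPM, was that of mutant replicate 1. That library was the highest of its group for 0 of the 9 factors and the lowest for 4.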
